A study of Homo sapiens with 30 samples.

Results

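The uroplakins are the membrane proteins of the urothelial surface, and 5 genes of this family were followed by name, UPK1A, UPK1B, UPK2, UPK3A and UPK3B. All 5 had a row in the first of 2 deposited count tables, which lists 58288 genes, and 4 had a row in the second, which lists 20073 genes and has none for UPK3A. Of the 5 members, 4 passed the filter on low counts in each experiment and were tested there, together with 19629 genes in the first experiment and 19399 in the second.

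The libraries came from UMUC1, a human cell line established from bladder cancer, whose own UTX is inactivated by mutation. UTX is the histone demethylase that the gene KDM6A encodes. All 10 groups share this mutation and have 3 libraries each, and the vectors were carried stably. In the first experiment the cells carried a pSIN-puro vector with UTX changed by H1146A and E1148A (HEAA), with wild type UTX (UTX), or empty (EV). Each of these was harvested on day 3 either in sphere medium (MEM without serum but with 20 ng/ml each of EGF and FGF2, and B27 free of vitamin A) or in full medium (MEM and fetal bovine serum at 10%). In the second experiment all cells were in full medium and carried 2 vectors. One was pBabe-puro with FGFR3 bearing S249C or with wild type FGFR3, a receptor tyrosine kinase, and the other was pCDH-blasticidin with wild type UTX or empty. The groups of that experiment are UTX_S249C, EV_S249C, UTX_FGFR3WT and EV_FGFR3WT, and it holds no cells without an added FGFR3. The series asks how the loss of UTX and the activation of FGFR3 act on genes of differentiation. Whether the 3 libraries of a group are separate cultures is not stated, and the spread behind each p-value may therefore be technical.

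Uroplakins form the plaques that cover the apical surface of umbrella cells, the outermost cells of the bladder lining, and they help make that surface a barrier to urine. The tetraspanins UPK1A and UPK1B each pair with a single-span partner, UPK1A with UPK2 and UPK1B with UPK3A or UPK3B, and the pairs leave the endoplasmic reticulum before they assemble into plaques. In bladder cancer, uroplakin RNA is widely used as a sign of luminal, more differentiated cells, and UPK3B is also made by mesothelium.

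UPK1A (ENSG00000105668) lies on chromosome 19 from 35666516 to 35678483, and UPK1B (ENSG00000114638) on chromosome 3 from 119173517 to 119205153. UPK2 (ENSG00000110375) lies on chromosome 11 from 118925164 to 118958559, UPK3A (ENSG00000100373) on chromosome 22 from 45284982 to 45295874, and UPK3B (ENSG00000243566) on chromosome 7 from 76510428 to 76516521. All 5 are on the plus strand (GRCh38, GENCODE v29 annotation). UPK2 shares 54 exon bases with BCL9L on the opposite strand (3659 to 7939 counts per library in the first table, and 5780 to 8432 in the second table). UPK1A shares 258 exon bases with its antisense RNA UPK1A-AS1, which had 4 to 15 counts per library in the first table. No source used here says whether the counting used strand, so reads of these overlapping pairs may not be told apart. UPK3BL1 and UPK3BL2 are named as genes like UPK3B, and their sequences were not compared here. Their counts and those of UPK3B are uncertain to the extent that reads were shared among them.

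RefSeq promoter windows, from 250 bases before to 50 bases after the RefSeq start, were matched for 3 of the 5 members (UPK1A, UPK1B and UPK3B). For UPK1B and UPK3B the GENCODE start given above lies earlier than the RefSeq start, inside the window. The windows of UPK1B and UPK3B are shown because these genes on different chromosomes had similar patterns over the 10 groups, though not a fixed ratio, as given below. They are the plus strand of GRCh38.p14 at chr3:119173348-119173647 and chr7:76510302-76510601, and capitals mark matches to the motifs searched.
UPK1B: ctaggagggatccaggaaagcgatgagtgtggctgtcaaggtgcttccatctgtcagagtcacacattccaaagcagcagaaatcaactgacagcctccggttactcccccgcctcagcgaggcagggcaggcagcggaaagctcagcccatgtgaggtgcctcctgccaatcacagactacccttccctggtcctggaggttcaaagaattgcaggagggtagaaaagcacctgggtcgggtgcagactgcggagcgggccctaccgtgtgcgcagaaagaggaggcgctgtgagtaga
UPK3B: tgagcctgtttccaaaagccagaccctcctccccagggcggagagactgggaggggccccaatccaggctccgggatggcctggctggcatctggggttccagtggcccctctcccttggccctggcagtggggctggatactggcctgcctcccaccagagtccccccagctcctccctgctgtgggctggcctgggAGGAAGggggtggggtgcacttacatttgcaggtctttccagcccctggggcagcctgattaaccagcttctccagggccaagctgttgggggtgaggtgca

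The motifs searched, on both strands, were AGATAA for the GATA factors, TGTTTAC for FOXA, AGGAAG for the ETS factors, AACCNGTT for GRHL, TGANTCA for AP-1, CCACACCC for KLF, AGGTCA for nuclear receptors and TATAAA for the TATA box, and no match in the 3 windows overlapped another. The UPK3B window held 1 match, an ETS match at -52 from the RefSeq start, which lies after the GENCODE start. The UPK1B window held no match to these letters. The UPK1A window held an ETS match on the minus strand at -68 and a TATA box match at -194. ETS letters occur in 33.6% of 35116 promoter windows, TATA letters in 11.5%, and the others in 13.8% (nuclear receptor), 10.3% (GATA), 7.71% (AP-1), 3.42% (FOXA), 3.28% (KLF) and 1.73% (GRHL). The G and C content was 65.7% for UPK3B, 58.3% for UPK1B and 60.7% for UPK1A, against a median of 58.7% over all windows.

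The first experiment had library totals of 23749352 to 40111234 counts, and the second had 21672408 to 28290664. Levels below are library-scaled counts (CPM, with TMM scaling factors), as mean ± SD over 3 libraries. KDM6A stood at 568 to 957 CPM in HEAA and UTX libraries, against 7.71 to 17.9 CPM in EV libraries of the first experiment, and at 699.6 to 946 CPM against 10.1 to 17.0 CPM in the second. FGFR3 stood at 2198 to 2624 CPM in S249C libraries and 1194 to 1377 CPM in wild type FGFR3 libraries, so an effect of the S249C change cannot be told apart from one of the higher FGFR3 RNA level. The 5 epithelial markers (EPCAM, CDH1, KRT8, KRT18 and KRT19) summed to 3909 to 6101 CPM per library. The 8 mesothelial markers summed to at most 1.27 CPM in the first experiment, where MSLN reached at most 0.293 CPM, and 1 of them (ITLN1) had a row in the second, at up to 1.38 CPM. The 7 fibroblast markers summed to 14.95 to 16.9 CPM in HEAA, 21.2 to 23.4 in UTX and 12.2 to 13.9 in EV cells in sphere medium, against 39.5 to 43.8, 50.4 to 57.0 and 44.1 to 54.0 CPM in full medium. These sums were lower in sphere than in full medium with each vector, and in sphere medium higher in UTX than in EV cells, and their part in the results was not tested. Of the 7 fibroblast markers, 4 had a row in the second table. They summed to 22.7 to 26.1 CPM in UTX_FGFR3WT, against 30.2 to 31.9 CPM in EV_FGFR3WT cells. With S249C they summed to 21.9 to 23.4 CPM in UTX_S249C, against 25.0 to 28.7 CPM in EV_S249C cells. These sums were lower with UTX, and their part was not tested either. Leukocyte and endothelial markers summed to 3.02 to 7.01 CPM in the first experiment. In the second, 6 of these 9 had a row and summed to 4.80 to 5.84 CPM in UTX_FGFR3WT, against 11.9 to 13.1 CPM in EV_FGFR3WT cells, and to 4.56 to 5.70 CPM in UTX_S249C, against 5.71 to 6.98 CPM in EV_S249C cells. KRT20, the keratin that defines umbrella cells, reached at most 2.49 CPM, and its changes are given with the gene lists.

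Within groups, 3 libraries stood apart from both of their replicates by the chi-square of their counts per gene. EV_sphere replicate 2 differed from the others by 11.8 and 11.7, against 5.63 between those. EV_S249C replicate 1 differed by 11.1 and 11.3, against 3.91, and UTX_S249C replicate 3 by 11.6 and 9.99, against 2.03. In UTX_S249C replicate 3 KDM6A was at 699.6 CPM, against 941 and 946 CPM in its replicates. Without EV_sphere replicate 2, UTX raised UPK1B by 1.41, UPK2 by 1.99 and UPK3B by 1.31 in sphere medium on the log2 scale, and HEAA by 1.03, 1.29 and 0.89. Without it, sphere medium changed the same genes in EV cells by -1.87, -2.88 and -1.36. The difference between media without it was 0.93, 1.09 and 0.48 for UTX and 0.69, 0.86 and 0.28 for HEAA, and all of these passed (largest adjusted p = 0.0157). What UPK1A and the second experiment show without these libraries is given beside those results.

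UPK1B and UPK3B were abundant in every group, UPK2 was present at a low level, UPK1A was at the edge of detection and UPK3A was not detected. In the first experiment UPK1B was highest in UTX cells in full medium, at 738 ± 19.5 CPM, and lowest in EV cells in sphere medium, at 145 ± 4.13 CPM. UPK3B stood at 493 ± 14.9 and 109 ± 5.50 CPM, and UPK2 at 30.2 ± 1.60 and 2.27 ± 0.186 CPM, in the same groups. Together the members took 0.0645% of all counts in UTX cells in sphere medium and 0.134% in UTX cells in full medium, against 0.0233% and 0.0848% in EV cells in the same media. In all of these bulk libraries, more cells with a uroplakin and more of its RNA per cell cannot be told apart.

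**Figure D1:**
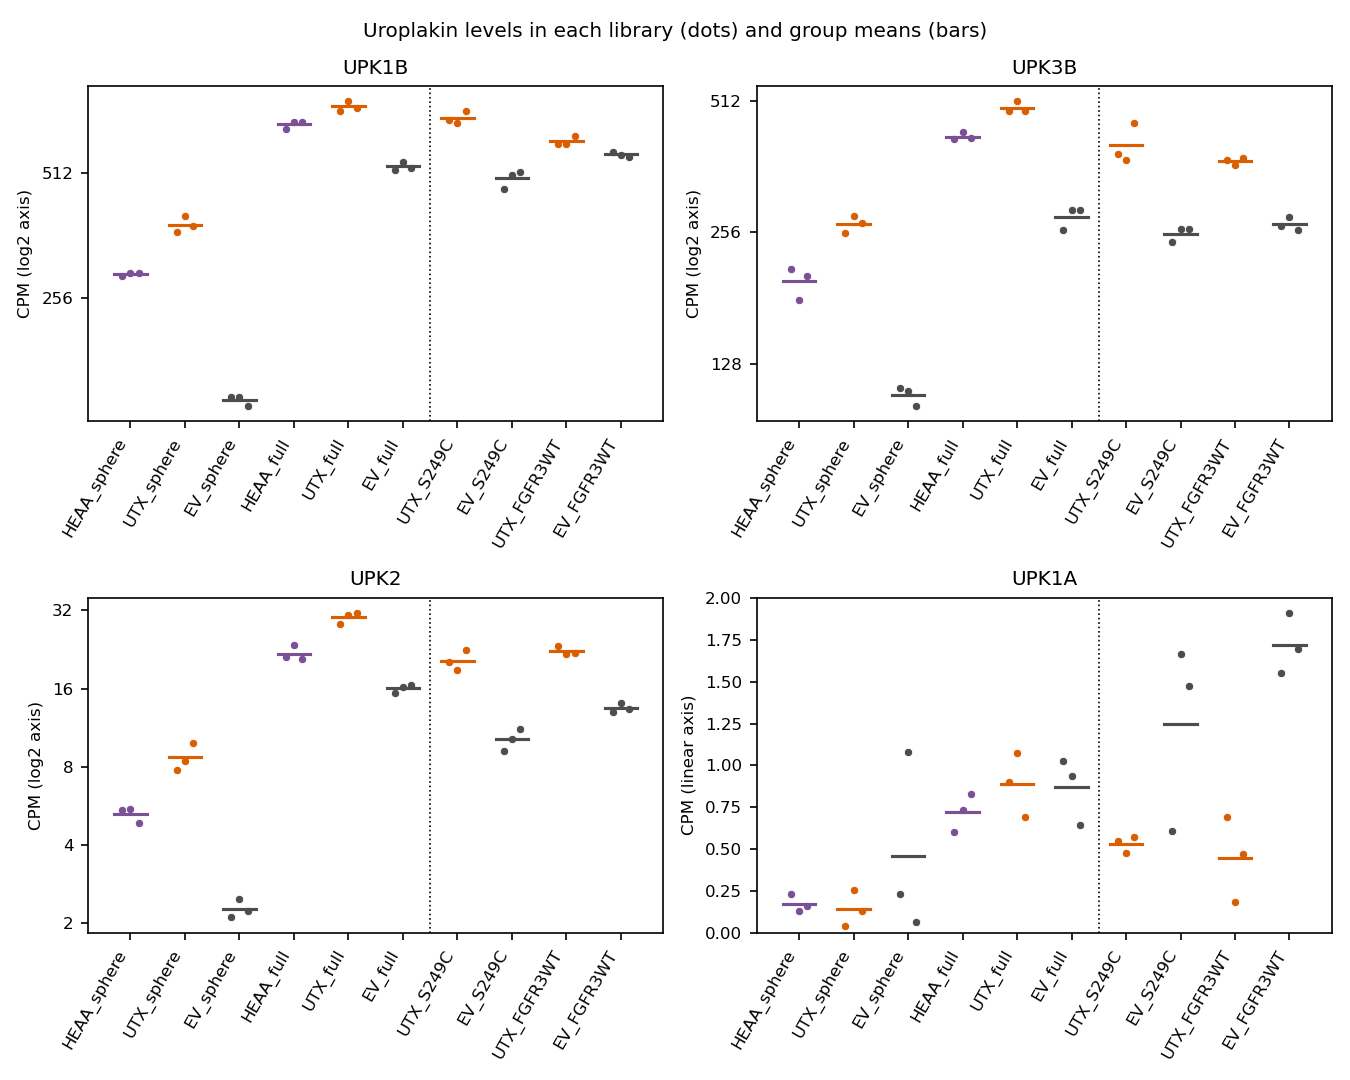
Uroplakin levels in CPM for UPK1B, UPK3B and UPK2 (log2 axes) and UPK1A (linear axis), with a dot for each library and a bar for each group mean; the dotted line parts the 2 experiments. UPK1B, UPK3B and UPK2 are lowest in EV cells in sphere medium, at 145, 109 and 2.27 CPM, and UPK1A stays under 2 CPM in all 30 libraries.

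In sphere medium, adding wild type UTX raised 3 uroplakins, the tetraspanin UPK1B and both partner proteins with measurable RNA, UPK2 and UPK3B. UPK1B was at 369, 402 and 381 CPM in UTX cells, against 148, 148 and 141 CPM in EV cells. UPK3B was at 254, 279 and 269 CPM in UTX cells, against 113, 111 and 102 CPM in EV cells. UPK2 was at 7.76, 8.45 and 9.89 CPM in UTX cells, against 2.10, 2.47 and 2.23 CPM in EV cells. In each of these genes all UTX libraries lay above all EV libraries. The log2 fold changes were 1.40 ± 0.04 for UPK1B, 1.94 ± 0.11 for UPK2 and 1.30 ± 0.06 for UPK3B (SE). The adjusted p-values were 9.38e-18, 4.5e-12 and 4.36e-14 (edgeR quasi-likelihood F test, Benjamini-Hochberg over all genes tested, here and below). UPK1A, the other tetraspanin, was at 0.04, 0.26 and 0.13 CPM in UTX cells, against 0.23, 1.08 and 0.06 CPM in EV cells. These overlap, and the change did not pass (log2 fold change -1.66 ± 0.72, adjusted p = 0.064). With DESeq2 it passed (-1.69, adjusted p = 0.0424), and without EV_sphere replicate 2 it was -0.09. Thus 3 of 4 tested members rose, while 22.8% of all genes tested were higher and 25.6% were lower. Higher genes made up 47.1% of the calls with TMM factors and 64.1% with library totals alone, where the median gene stood 0.10 higher. Relative to that median the changes were 1.41 for UPK1B, 1.94 for UPK2 and 1.31 for UPK3B. The epithelial markers summed to 5520 to 5852 CPM in UTX cells and 4220 to 4457 CPM in EV cells in this medium, and their part in the result was not tested.

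In full medium the same 3 genes rose with UTX, each by a smaller factor. UPK1B was at 722, 760.0 and 733 CPM in UTX cells, against 521, 544 and 527 CPM in EV cells. UPK3B was at 485, 510.4 and 484 CPM in UTX cells, against 259, 287 and 288 CPM in EV cells. UPK2 was at 28.4, 30.8 and 31.4 CPM in UTX cells, against 15.4, 16.3 and 16.6 CPM in EV cells. The groups did not overlap in any of the 3. The log2 fold changes were 0.48 ± 0.04 for UPK1B, 0.90 ± 0.07 for UPK2 and 0.83 ± 0.05 for UPK3B (adjusted p = 1.72e-10, 1.65e-10 and 2.56e-11). UPK1A averaged 0.889 ± 0.191 CPM in UTX cells and 0.870 ± 0.200 CPM in EV cells, with overlapping libraries. Its log2 fold change was 0.04 ± 0.46 (95% interval -0.92 to 0.99, adjusted p = 0.954). Again 3 of 4 members rose, in a comparison where 28.4% of genes were higher and 29.2% lower. Higher genes made up 49.3% of these calls, and 59.7% with upper-quartile factors. The epithelial markers summed to 4325 to 4557 CPM in UTX cells and 3909 to 4037 CPM in EV cells in full medium. Their part in the result was not tested.

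HEAA, the UTX with H1146A and E1148A, also raised UPK1B, UPK2 and UPK3B over the empty vector in both media. In sphere medium UPK1B was at 289, 293 and 293 CPM, UPK3B at 211, 179 and 204 CPM, and UPK2 at 5.45, 5.52 and 4.87 CPM in HEAA cells, all above the EV libraries given above. The log2 fold changes were 1.00 ± 0.04 for UPK1B, 1.22 ± 0.12 for UPK2 and 0.86 ± 0.06 for UPK3B (adjusted p = 3.54e-15, 2.53e-08 and 5.03e-11). UPK1A averaged 0.174 ± 0.054 CPM in HEAA cells and 0.459 ± 0.543 CPM in EV cells (log2 fold change -1.29 ± 0.65, adjusted p = 0.119). The 3 of 4 members that rose stand beside 19.9% of genes higher and 21.5% lower. With library totals alone, higher genes made up 67.4% of the calls in place of 48.1%.

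In full medium UPK1B was at 651, 678 and 676 CPM, UPK3B at 418, 434 and 419.7 CPM, and UPK2 at 21.2, 23.5 and 20.8 CPM in HEAA cells. These too lay above all EV libraries, with log2 fold changes of 0.33 ± 0.04 for UPK1B, 0.44 ± 0.07 for UPK2 and 0.61 ± 0.05 for UPK3B (adjusted p = 7.57e-08, 1.62e-05 and 6.2e-09). UPK1A averaged 0.720 ± 0.114 CPM in HEAA cells and 0.870 ± 0.200 CPM in EV cells (log2 fold change -0.25 ± 0.47, adjusted p = 0.693). The count was again 3 of 4 higher, with 23.2% of genes higher and 25.3% lower.

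Set directly against wild type UTX, HEAA cells had less of all 3 genes. In sphere medium UPK1B averaged 292 ± 2.66 CPM in HEAA cells and 384 ± 16.7 CPM in UTX cells, UPK3B 198 ± 16.7 and 267 ± 12.4 CPM, and UPK2 5.28 ± 0.356 and 8.70 ± 1.09 CPM. No HEAA library reached a UTX library, and the log2 fold changes were -0.40 ± 0.04, -0.43 ± 0.06 and -0.72 ± 0.10 in that order (adjusted p = 1.23e-07, 1.21e-05 and 1.9e-05). In full medium the differences were smaller, at -0.14 ± 0.04 for UPK1B, -0.22 ± 0.05 for UPK3B and -0.47 ± 0.07 for UPK2 (adjusted p = 0.00514, 0.00537 and 2.57e-05), and the libraries did not overlap. UPK1A did not pass in sphere medium (0.37 ± 0.84, adjusted p = 0.821) or in full medium (-0.29 ± 0.48, adjusted p = 0.745). So 3 of 4 members were lower in each medium, against 8.87% of all genes lower and 11.2% higher in sphere medium, and 8.95% lower and 12.4% higher in full medium. With upper-quartile factors, higher genes made up 44.1% of the full medium calls in place of 58.2%. KDM6A RNA itself was higher in HEAA than in UTX cells, by 0.13 ± 0.04 in sphere and 0.26 ± 0.04 in full medium on the log2 scale (adjusted p = 0.0139 and 2.65e-05), and its part in the result was not tested.

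Sphere medium lowered UPK1B, UPK2 and UPK3B with each of the 3 vectors. On the log2 scale the fall was larger in EV cells than in UTX or HEAA cells, by the tests of the difference given further on. In CPM this held for the group means of UPK1B, while those of UPK2 and UPK3B fell least in EV cells. In EV cells UPK1B averaged 145 ± 4.13 CPM in sphere medium and 530.4 ± 12.1 CPM in full medium (log2 fold change -1.87 ± 0.04, adjusted p = 6.77e-21). UPK2 averaged 2.27 ± 0.186 CPM in sphere medium and 16.1 ± 0.624 CPM in full medium (-2.83 ± 0.10, adjusted p = 1.48e-16). UPK3B averaged 109 ± 5.50 CPM in sphere medium and 278 ± 16.6 CPM in full medium (-1.35 ± 0.06, adjusted p = 3.64e-15). In UTX cells the same genes fell by 0.94 ± 0.04, 1.80 ± 0.08 and 0.88 ± 0.05 on the log2 scale, and in HEAA cells by 1.20 ± 0.04, 2.05 ± 0.08 and 1.10 ± 0.06 (largest adjusted p = 3.84e-12, for UPK3B in UTX cells). In all 3 genes and all 3 vectors, every sphere medium library lay below every full medium library of that vector. UPK3B in UTX cells in sphere medium, at 254 to 279 CPM, overlapped EV cells in full medium, at 259 to 288 CPM. For UPK1B and UPK2 no neighbouring pair among the 6 groups overlapped, in the order UTX, HEAA and EV in full medium and then UTX, HEAA and EV in sphere medium.

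UPK1A also fell in sphere medium in HEAA cells (0.174 ± 0.054 CPM in sphere and 0.720 ± 0.114 CPM in full medium, log2 fold change -1.97 ± 0.60, adjusted p = 0.00642) and in UTX cells (0.142 ± 0.109 and 0.889 ± 0.191 CPM, -2.62 ± 0.66, adjusted p = 0.00127). It did not pass in EV cells (0.459 ± 0.543 and 0.870 ± 0.200 CPM, -0.92 ± 0.50, adjusted p = 0.113), where 1 sphere medium library held 31 counts and the others 7 and 2. Without that library the change in EV cells was -2.49 (adjusted p = 0.000135). The counts were thus 4 of 4 lower in HEAA, 4 of 4 in UTX and 3 of 4 in EV cells. Over all genes, 36.3% were lower and 34.4% higher in HEAA cells, 35.4% and 35.1% in UTX cells, and 32.4% and 33.1% in EV cells. With other scaling the median gene moved to as low as -0.22, and higher genes made up 38.7% of calls in UTX cells in place of 49.8% (upper-quartile factors) and 34.9% in EV cells in place of 50.6% (library totals alone). Relative to the median gene, UPK1B, UPK2 and UPK3B in EV cells changed by -1.84, -2.80 and -1.33 with library totals alone. The media differ in serum, B27, FGF2 and EGF together, and the effects of these cannot be told apart. Basal urothelial genes, 20 listed, summed to 38610 to 40400 CPM in EV cells in sphere medium and 10300 to 10420 CPM in EV cells in full medium, and their part in the result was not tested.

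Because the vectors and media were crossed, the change with UTX could be tested for a difference between media, as the log2 fold change in sphere medium less that in full medium. The UTX effect was larger in sphere medium by 0.92 ± 0.05 for UPK1B, 1.03 ± 0.13 for UPK2 and 0.47 ± 0.08 for UPK3B (adjusted p = 6.09e-12, 2.27e-06 and 4.96e-05). The HEAA effect was larger in sphere medium by 0.67 ± 0.05, 0.78 ± 0.14 and 0.26 ± 0.08 for the same genes (adjusted p = 1.75e-09, 0.000148 and 0.0144). UPK1A passed in neither (-1.70 ± 0.86, adjusted p = 0.134 for UTX, and -1.04 ± 0.80, adjusted p = 0.354 for HEAA). For UTX 3 of 4 members were higher, against 21.1% of genes higher and 16.2% lower, and for HEAA 3 of 4, against 18.7% higher and 14.3% lower. KDM6A also rose more over EV in sphere medium, by 1.67 ± 0.07 more for UTX (adjusted p = 4.26e-14). With HEAA it averaged 943 ± 15.3 CPM in sphere and 694 ± 7.34 CPM in full medium, against 8.18 ± 0.784 and 17.4 ± 0.745 CPM in EV cells. Its level was thus higher in UTX and HEAA cells and lower in EV cells in sphere medium. The part of KDM6A in either result was not tested. Because both interactions use the same EV libraries, they are not independent of each other.

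**Figure D2:**
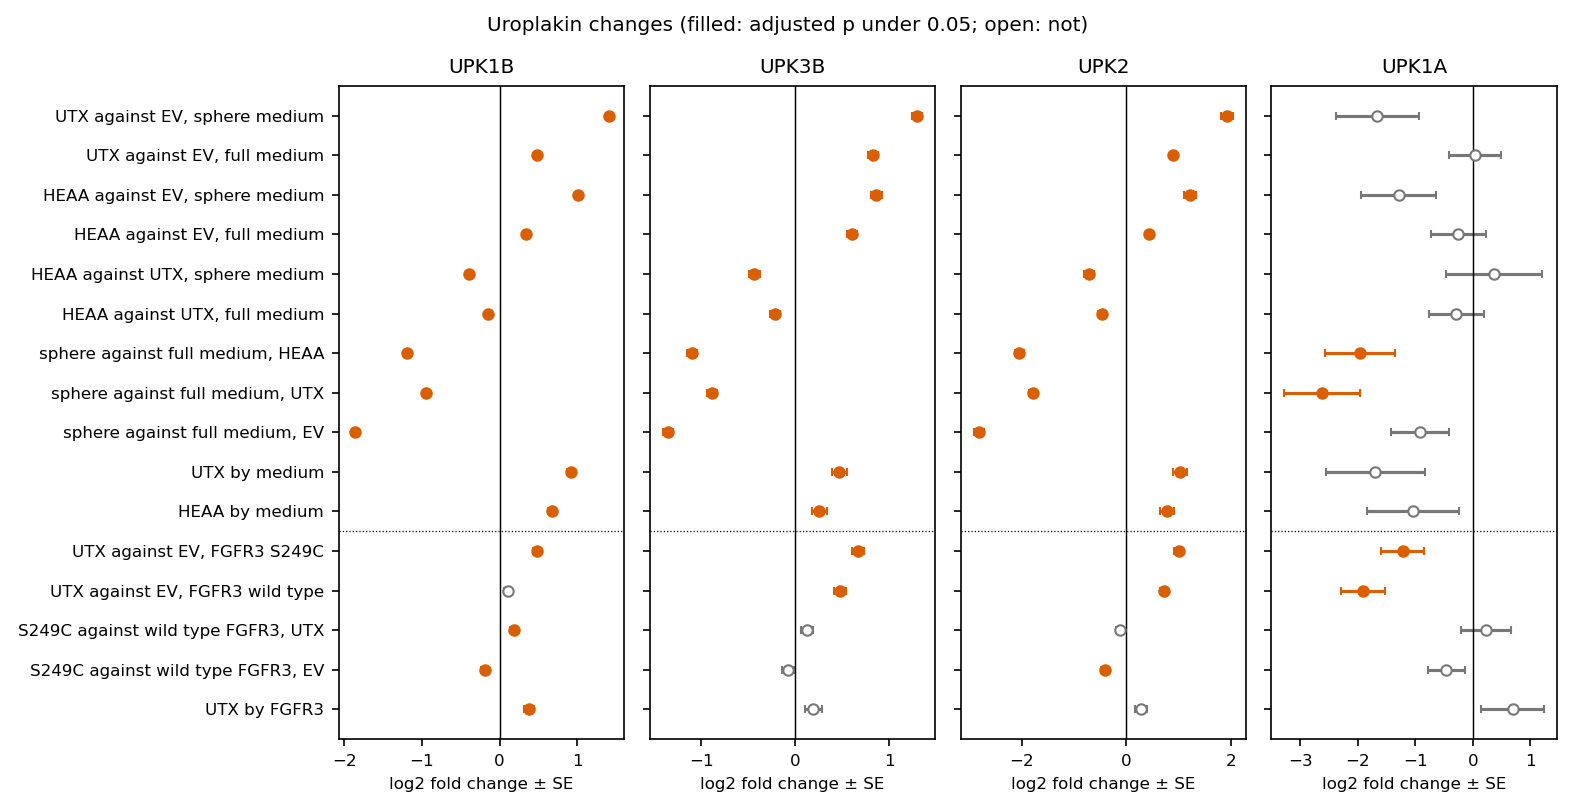
Log2 fold changes of the 4 tested uroplakins in all 16 comparisons, with SE bars (many smaller than the dot); filled dots passed an adjusted p under 0.05, and the dotted line parts the 2 experiments. UPK1B, UPK3B and UPK2 move together in the first experiment (1.40, 1.30 and 1.94 for UTX in sphere medium), while UPK1A has wide bars and lies on the other side of 0 in several comparisons.

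In the second experiment, with FGFR3 bearing S249C present, UTX again raised UPK1B, UPK2 and UPK3B. UPK1B was at 684, 672 and 721 CPM in UTX_S249C cells, against 468, 506 and 514 CPM in EV_S249C cells. UPK3B was at 386, 375 and 455 CPM in UTX_S249C cells, against 243, 260.3 and 259.7 CPM in EV_S249C cells. UPK2 was at 20.2, 18.8 and 22.5 CPM in UTX_S249C cells, against 9.20, 10.2 and 11.2 CPM in EV_S249C cells. The groups did not overlap in these 3 genes, and the log2 fold changes were 0.48 ± 0.05, 0.67 ± 0.06 and 1.01 ± 0.08 in that order (adjusted p = 2.56e-06, 2.13e-06 and 5.12e-07). UTX_S249C replicate 3, which stood apart, held the highest value of each, and without it the changes were 0.45, 0.58 and 0.93. Without EV_S249C replicate 1, which stood apart and held the lowest values, they were 0.44, 0.64 and 0.94, and all passed either way (largest adjusted p = 2.01e-05). UPK1A went the other way, at 0.551, 0.474 and 0.570 CPM in UTX_S249C cells, against 0.611, 1.67 and 1.47 CPM in EV_S249C cells. That fall passed (log2 fold change -1.22 ± 0.37, adjusted p = 0.0284) on 13 to 42 counts per library, but not without either of EV_S249C replicates 2 and 3 or of UTX_S249C replicates 1 and 2 (adjusted p = 0.125, 0.0901, 0.0697 and 0.0896). With S249C, 3 members rose and 1 fell, beside 12.9% of genes higher and 8.62% lower. Higher genes made up 59.9% of calls, and 45.9% with library totals alone. The epithelial markers summed to 5573 to 6101 CPM in UTX_S249C and 5151 to 5386 CPM in EV_S249C cells. Their part in the result was not tested.

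With wild type FGFR3, UTX raised UPK2 and UPK3B, and UPK1B did not pass. UPK2 was at 23.3, 21.8 and 22.0 CPM in UTX_FGFR3WT cells, against 13.0, 14.1 and 13.4 CPM in EV_FGFR3WT cells (log2 fold change 0.73 ± 0.08, adjusted p = 1.37e-05). UPK3B was at 374, 365 and 379 CPM in UTX_FGFR3WT cells, against 265, 278 and 259 CPM in EV_FGFR3WT cells (0.48 ± 0.06, adjusted p = 7.29e-05). UPK1B was at 602, 600.2 and 628 CPM in UTX_FGFR3WT cells, against 575, 565 and 559 CPM in EV_FGFR3WT cells. These UPK1B libraries did not overlap, but the log2 fold change of 0.11 ± 0.05 had an adjusted p of 0.145 (95% interval 0.01 to 0.20). UPK1A fell, at 0.692, 0.186 and 0.468 CPM in UTX_FGFR3WT cells, against 1.55, 1.91 and 1.70 CPM in EV_FGFR3WT cells, with no overlap (-1.91 ± 0.38, adjusted p = 0.00266). With wild type FGFR3, 2 members rose and 1 fell, beside 9.06% of genes higher and 6.01% lower. The epithelial marker sums overlapped here, at 5194 to 5461 CPM in UTX_FGFR3WT and 5178 to 5418 CPM in EV_FGFR3WT cells.

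The difference between these UTX effects passed for UPK1B, where UTX raised the gene by 0.37 ± 0.06 more on the log2 scale with S249C than with wild type FGFR3 (adjusted p = 0.0151). For UPK2 the difference was 0.28 ± 0.11 (95% interval 0.04 to 0.52, adjusted p = 0.391), for UPK3B 0.19 ± 0.09 (95% interval 0.01 to 0.38, adjusted p = 0.444) and for UPK1A 0.69 ± 0.55 (adjusted p = 0.702). Thus 1 of 4 members was called, in a test that called 0.572% of genes higher and 0.113% lower. On the log2 scale UTX cells also had 0.16 ± 0.05 more FGFR3 than EV cells with S249C (adjusted p = 0.0403) and -0.07 ± 0.05 with wild type FGFR3 (adjusted p = 0.461), and the part of this was not tested. The UPK1B call was lost without UTX_FGFR3WT replicate 1 (adjusted p = 0.0514) or replicate 2 (adjusted p = 0.0523). Without UTX_S249C replicate 3 or EV_S249C replicate 1 the difference was 0.34 in each case (adjusted p = 0.0153 and 0.0181).

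S249C against wild type FGFR3 gave 1 uroplakin call in UTX cells and 2 in EV cells. In UTX cells UPK1B averaged 692 ± 25.4 CPM with S249C and 609.8 ± 15.4 CPM with wild type FGFR3 (log2 fold change 0.18 ± 0.05, adjusted p = 0.0414), a call that was lost when any 1 of the 6 libraries was left out (adjusted p 0.0597 to 0.16). UPK2 (-0.13 ± 0.08, adjusted p = 0.512), UPK3B (0.12 ± 0.06, adjusted p = 0.407) and UPK1A (0.23 ± 0.44, adjusted p = 0.889) did not pass, and their libraries overlapped. Here 1 of 4 members was higher, with 1.71% of genes higher and 1.34% lower.

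In EV cells S249C lowered UPK1B and UPK2. UPK1B averaged 496 ± 24.7 CPM in EV_S249C cells and 566 ± 7.82 CPM in EV_FGFR3WT cells (-0.19 ± 0.05, adjusted p = 0.0151), and UPK2 10.2 ± 0.996 and 13.5 ± 0.571 CPM (-0.41 ± 0.09, adjusted p = 0.00688), with no overlap in either gene. The UPK1B call was lost without EV_FGFR3WT replicate 1 (adjusted p = 0.0519). Without EV_S249C replicate 1 the changes were -0.15 for UPK1B and -0.34 for UPK2 (adjusted p = 0.0461 and 0.0338). UPK3B averaged 254 ± 10.1 CPM in EV_S249C cells and 267 ± 9.90 CPM in EV_FGFR3WT cells and overlapped (-0.07 ± 0.06, adjusted p = 0.517), as did UPK1A (-0.46 ± 0.32, adjusted p = 0.404). Of the 4 members 2 were lower, beside 6.45% of genes lower and 4.31% higher. Higher genes made up 40% of calls, and 50.1% with library totals alone. The order of UPK1B over the second experiment was UTX_S249C, UTX_FGFR3WT, EV_FGFR3WT and EV_S249C, with no overlap between neighbours. UPK3B fell into 2 levels, UTX with either FGFR3 (365 to 455 CPM) and EV with either FGFR3 (243 to 278 CPM), within which the groups overlapped.

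The 3 measured genes did not keep a fixed ratio to each other. UPK2, the smallest, stood at 1.81 ± 0.13 counts per 100 counts of UPK1B in HEAA, 2.27 ± 0.29 in UTX and 1.56 ± 0.12 in EV cells in sphere medium, and at 3.27 ± 0.20, 4.09 ± 0.18 and 3.03 ± 0.10 in full medium. UPK2 was thus scarcer relative to UPK1B in sphere than in full medium with each vector, and the libraries of the media did not overlap. UPK3B stood at 67.8 ± 6.16 (HEAA), 69.6 ± 0.864 (UTX) and 74.7 ± 1.80 (EV) counts per 100 of UPK1B in sphere medium, and at 63.4 ± 1.19, 66.8 ± 0.643 and 52.4 ± 2.51 in full medium. In full medium the UTX and HEAA libraries lay above EV in this ratio, while in sphere medium the UTX libraries, at 68.9 to 70.6, lay below the EV libraries, at 72.8 to 76.4. In the second experiment UPK3B stood at 58.5 ± 4.05 counts per 100 of UPK1B in UTX_S249C, 61.1 ± 0.915 in UTX_FGFR3WT, 51.2 ± 0.679 in EV_S249C and 47.2 ± 1.73 in EV_FGFR3WT. UPK2 there stood at 2.96 ± 0.16, 3.67 ± 0.19, 2.05 ± 0.11 and 2.39 ± 0.12 in the same groups, and in both ratios every UTX library lay above every EV library. These ratios of counts depend on transcript length and are compared between groups, not between genes.

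**Figure D3:**
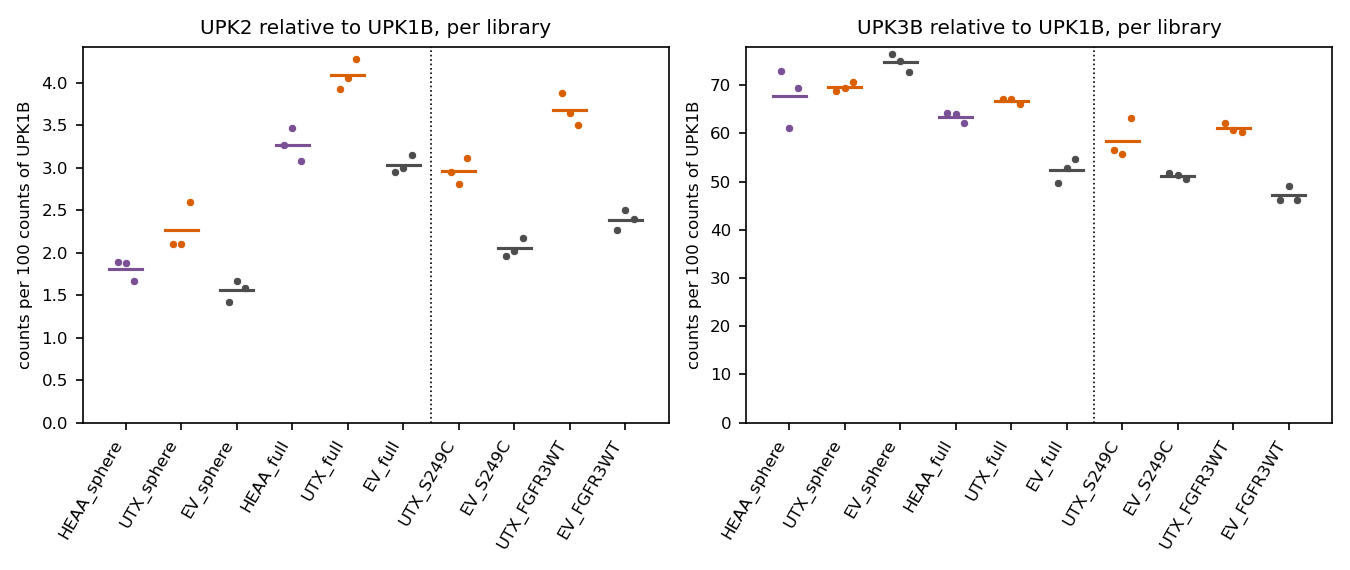
Counts of UPK2 (left) and UPK3B (right) per 100 counts of UPK1B in each library, with bars for group means; both axes start at 0 and the dotted line parts the 2 experiments. UPK2 has 1.56 to 2.27 counts per 100 of UPK1B on average in sphere medium and 3.03 to 4.09 in full medium, while UPK3B is highest relative to UPK1B in EV cells in sphere medium (74.7) and lower in EV cells in full medium (52.4).

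Per length, the order of UPK1B and UPK3B depended on the group and on the length used. Per kilobase of all exons (2266 bases for UPK1B and 2660 for UPK3B), UPK1B was higher in all 10 groups, as in UTX cells in full medium (326 against 185 CPM per kilobase). Per kilobase of the principal transcript (2118 and 1296 bases), UPK3B was higher in 5 groups and UPK1B in the other 5. UPK3B led in UTX and HEAA cells in both media and in EV cells in sphere medium, as in UTX cells in full medium at 380.5 ± 11.5 CPM per kilobase against 349 ± 9.23 for UPK1B. UPK1B led in EV cells in full medium, at 250.4 ± 5.73 against 214.5 ± 12.8 CPM per kilobase for UPK3B. It also led in all 4 groups of the second experiment, but in UTX_FGFR3WT and UTX_S249C by less than the SD of UPK3B. On the principal transcript UPK1B ranked 124th in UTX cells and 195th in EV cells in full medium among 19576 protein-coding genes, and UPK3B 114th and 232nd. In sphere medium UPK1B ranked 327th in UTX cells and 1086th in EV cells, and UPK3B 282nd and 864th. Among 14084 coding genes of the second experiment UPK1B ranked 170th to 230th and UPK3B 177th to 295th. In the first experiment UPK2 ranked from 1952nd in UTX cells in full medium to 9541st in EV cells in sphere medium, and UPK1A ranked no higher than 11320th in each of the 6 groups. UPK3A, the partner of UPK1B in umbrella cells, had 0 counts in all 18 libraries of the first experiment, where a count of 0 allows up to 3 counts per library, or 0.0744 to 0.129 CPM. This limit covers counting error only.

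UPK3BL1, named as a gene like UPK3B, moved against it between media and did not pass with UTX in the first experiment. It rose together with UPK3B under HEAA in sphere medium and under UTX in the second experiment. In sphere medium UPK3BL1 averaged 96.7 ± 2.63 CPM in HEAA, 74.6 ± 1.57 in UTX and 69.5 ± 9.31 in EV cells, against 55.8 ± 0.176, 52.2 ± 2.46 and 50.7 ± 3.82 CPM in full medium. It therefore rose in sphere medium, by 0.79 ± 0.07 in HEAA, 0.52 ± 0.07 in UTX and 0.46 ± 0.07 in EV cells on the log2 scale (adjusted p = 5.64e-10, 7.01e-07 and 3.49e-06), where UPK3B fell. UTX against EV did not pass for UPK3BL1 in sphere medium (0.10 ± 0.07, adjusted p = 0.223) or in full medium (0.04 ± 0.07, adjusted p = 0.625). With HEAA in sphere medium UPK3BL1 rose by 0.47 ± 0.06 over EV (adjusted p = 3.36e-06), with no overlap, and in full medium it did not pass (0.14 ± 0.07, adjusted p = 0.101). In the second experiment UPK3BL1 rose with UTX by 0.67 ± 0.10 with S249C and 0.49 ± 0.10 with wild type FGFR3 (adjusted p = 0.000209 and 0.00347). UPK3BL2, which had a row in the second table, averaged 13.7 ± 0.711 CPM in UTX_S249C cells and 9.13 ± 1.63 CPM in EV_S249C cells (0.59 ± 0.15, adjusted p = 0.0113). With wild type FGFR3 it averaged 14.2 ± 3.04 CPM in UTX_FGFR3WT and 11.6 ± 1.74 CPM in EV_FGFR3WT cells, with overlap (0.28 ± 0.15, adjusted p = 0.252).

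Other genes of the urothelium were read from lists of transcription factors of urothelial differentiation, umbrella and luminal cell genes, genes of apical vesicle transport, other tetraspanins and basal urothelial genes. A largest rise or fall named from a list is the largest among its genes that passed and averaged at least 2 CPM over the groups compared. With UTX in sphere medium, 17 of 24 umbrella and luminal genes rose and 5 fell, with a median log2 fold change of 0.46 against -0.01 over all genes, of which 22.8% rose and 25.6% fell. The largest rise among them was PSCA, a surface antigen of luminal cells, at 17.7 ± 1.08 CPM in UTX and 1.77 ± 0.632 CPM in EV cells (3.33 ± 0.13, adjusted p = 7.56e-15). The largest fall was AQP3, a water and glycerol channel, at 672 ± 13.2 CPM in UTX and 1050 ± 15.5 CPM in EV cells (-0.64 ± 0.04, adjusted p = 9.16e-12). In full medium 7 of the 24 rose with UTX and 10 fell (median -0.15 against 0.04 over all genes, of which 28.4% rose and 29.2% fell). AQP3 was again the largest fall, at 3.93 ± 0.280 CPM in UTX and 44.1 ± 1.15 CPM in EV cells, and CD24, a surface glycoprotein, the largest rise (1.52 ± 0.05, adjusted p = 2.47e-16). With HEAA 14 of 24 rose and 3 fell in sphere medium (median 0.33), and 9 rose and 10 fell in full medium (median -0.08). Over all genes HEAA raised 19.9% and lowered 21.5% in sphere medium, and raised 23.2% and lowered 25.3% in full medium. In the difference between media, 14 of 24 were higher and 2 lower for UTX (median 0.65), against 21.1% higher and 16.2% lower over all genes.

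KRT20, which lies under the 2 CPM level and was picked after its values were seen, moved against the uroplakins with UTX. It had 3 to 12 counts per library in UTX cells (0.129 to 0.477 CPM), against 70 to 77 in EV cells (2.44 to 2.49 CPM), in sphere medium (log2 fold change -3.06 ± 0.34, adjusted p = 2.41e-07). In full medium KRT20 had 0 counts in all 3 UTX libraries, which allows up to 3 counts in each, against 38 to 39 counts in EV libraries (0.968 to 1.38 CPM, adjusted p = 1.54e-08). In HEAA cells it stood at 0.455 to 0.675 CPM in sphere medium and 0 to 0.0636 CPM in full medium. With FGFR3 bearing S249C, KRT20 had 2 to 4 counts in UTX_S249C libraries, against 11 to 22 in EV_S249C libraries (-2.52 ± 0.49, adjusted p = 0.00176). It had 1 to 5 counts in UTX_FGFR3WT libraries, against 20 to 23 in EV_FGFR3WT libraries (-2.54 ± 0.45, adjusted p = 0.00115). KRT20 thus fell with UTX in all 4 comparisons in which UPK2 and UPK3B rose.

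Of 20 transcription factors, 7 rose and 7 fell with UTX in sphere medium, and 8 rose and 9 fell in full medium (medians 0.01 and 0.10), where 22.8% of all genes rose and 25.6% fell in sphere medium, and 28.4% rose and 29.2% fell in full medium. ELF3, an ETS factor of luminal urothelium, had the largest rise in sphere medium, at 17.4 ± 0.750 CPM in UTX and 4.57 ± 0.663 CPM in EV cells (1.93 ± 0.08, adjusted p = 2.25e-14). GRHL3, a grainyhead factor that umbrella cell differentiation requires in mouse, had the largest fall in full medium, at 2.19 ± 0.306 CPM in UTX and 20.4 ± 1.13 CPM in EV cells (-3.21 ± 0.09, adjusted p = 1.01e-17). TBX2, a T-box factor, rose most in full medium (1.70 ± 0.13, adjusted p = 4.11e-10), and KLF4, a Krüppel-like factor, fell most in sphere medium (-0.79 ± 0.05, adjusted p = 3.96e-11). In sphere against full medium in EV cells 7 of the 20 rose and 12 fell (median -0.45 against -0.03 over all genes, of which 33.1% rose and 32.4% fell). ELF3 fell most, at 4.57 ± 0.663 CPM in sphere and 104 ± 2.82 CPM in full medium (-4.51 ± 0.07, adjusted p = 3.68e-23), and GRHL1 rose most (2.40 ± 0.04, adjusted p = 1.32e-22). In that comparison 7 of the 24 umbrella and luminal genes rose and 13 fell (median -0.66), with KRT7, a keratin of simple epithelium, at 1.77 ± 0.302 CPM in sphere and 84.4 ± 2.76 CPM in full medium. Of 20 basal genes 17 rose and 3 fell (median 1.53), led by KRT16, a keratin of activated keratinocytes, at 586 CPM in sphere and 0.869 CPM in full medium (9.38 ± 0.10, adjusted p = 5.11e-25).

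Of the 21 tested tetraspanins other than UPK1A and UPK1B, 14 rose and 4 fell with UTX in sphere medium (median 0.28), where 22.8% of all genes rose and 25.6% fell. In full medium 10 rose and 6 fell (median 0.11), where 28.4% of all genes rose and 29.2% fell. TSPAN1 rose most in each, at 65.1 ± 7.44 CPM in UTX and 5.05 ± 1.24 CPM in EV cells in sphere medium (3.69 ± 0.10, adjusted p = 1.17e-17) and at 97.2 ± 2.60 and 24.0 ± 0.479 CPM in full medium (2.01 ± 0.07, adjusted p = 1.82e-15). Genes of apical vesicle transport were split in the same comparisons, with 9 rising and 8 falling of 23 tested in sphere medium and 8 rising and 10 falling in full medium (medians 0.02 and -0.07). SYTL2, a Rab27 effector, was the largest rise of that list in sphere medium (2.15 ± 0.12, adjusted p = 2.07e-12) and the largest fall above 2 CPM in full medium (-1.25 ± 0.13, adjusted p = 2.01e-08), where SNX31, a sorting nexin under that level, fell by 1.40 ± 0.28 (adjusted p = 0.000174). Basal genes were also split, with 8 rising and 10 falling in sphere medium and 10 rising and 8 falling in full medium. Their summed level was lower with UTX in sphere medium, at 24190 to 24550 CPM in UTX and 38610 to 40400 CPM in EV cells. In full medium the sums were 10490 to 11030 CPM in UTX and 10300 to 10420 CPM in EV cells. The part of these sums in the uroplakin results was not tested. KRT14 fell most in sphere medium, at 338 ± 9.34 CPM in UTX and 1327 ± 79.9 CPM in EV cells, and KRT5, its partner keratin in basal cells, fell most in full medium, at 167 ± 9.37 and 2287 ± 96.5 CPM.

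**Figure D4:**
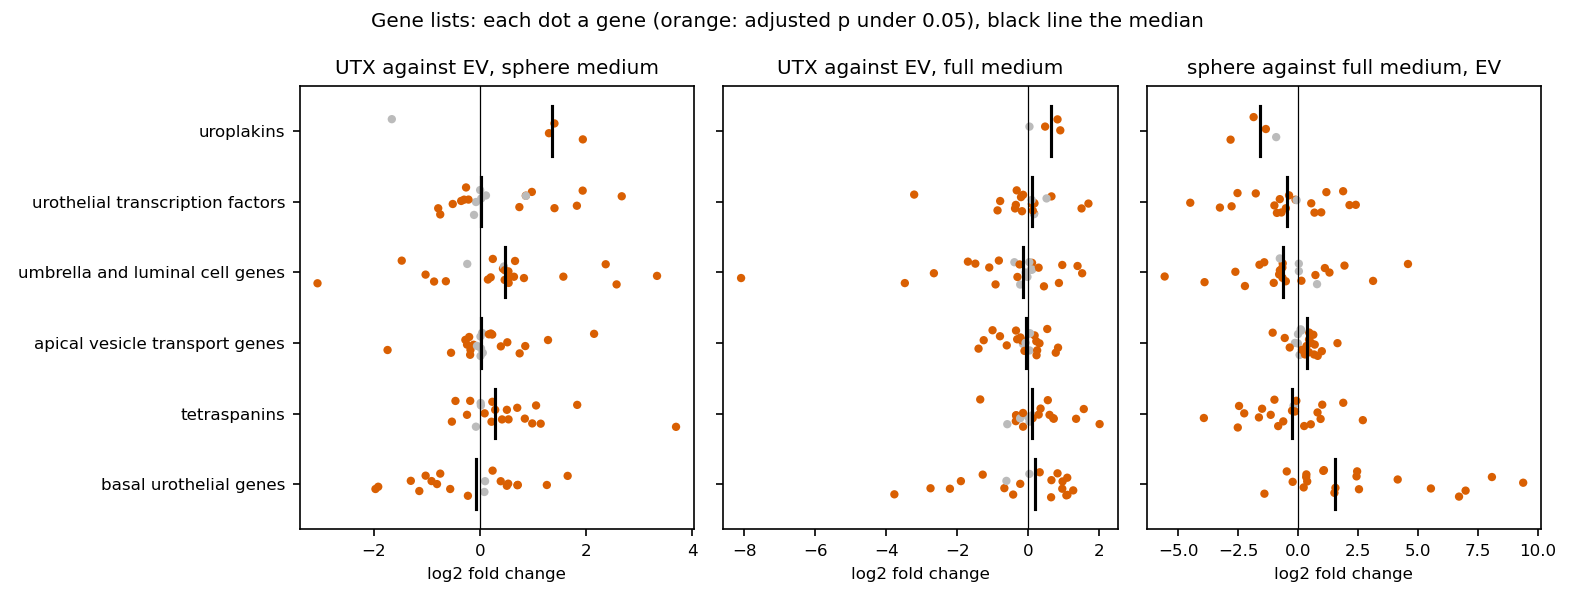
Log2 fold changes of each tested gene of the uroplakins and of 5 lists in UTX against EV in sphere and in full medium and in sphere against full medium in EV cells; orange dots passed an adjusted p under 0.05 and black lines are medians. Umbrella and luminal genes have a median of 0.46 with UTX in sphere medium and -0.15 in full medium, and basal genes a median of 1.53 in sphere against full medium.

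In the second experiment, UTX raised 15 of 22 umbrella and luminal genes and lowered 3 with S249C (median 0.38), and raised 9 and lowered 5 with wild type FGFR3 (median 0.15). Over all genes UTX raised 12.9% and lowered 8.62% with S249C, and raised 9.06% and lowered 6.01% with wild type FGFR3. Among those averaging at least 2 CPM, TJP3, a tight junction scaffold, rose most in both (1.21 ± 0.11 and 0.93 ± 0.11, adjusted p = 1.33e-06 and 2.31e-05), and KRT7 fell most in both (-0.25 ± 0.06 and -0.35 ± 0.06, adjusted p = 0.00885 and 0.00132). Below that level SCNN1G, a subunit of the epithelial sodium channel, rose more (1.61 ± 0.26 and 1.30 ± 0.30, adjusted p = 0.000474 and 0.00699) and KRT20 fell more, as given above. Among transcription factors 9 of 20 rose with S249C, led by ELF3 at 24.5 ± 0.925 CPM in UTX_S249C and 14.2 ± 1.30 CPM in EV_S249C cells (0.79 ± 0.07, adjusted p = 9.96e-07). With wild type FGFR3 6 rose and 5 fell, led by OVOL1 (0.50 ± 0.08, adjusted p = 0.000692) and GRHL3 (-0.68 ± 0.14, adjusted p = 0.00312). TSPAN1 rose most among tetraspanins with both, by 1.90 ± 0.05 and 2.20 ± 0.05 (adjusted p = 2.57e-12 and 5.82e-13), where 9 of 21 rose and 2 fell with S249C and 7 rose and 2 fell with wild type FGFR3. SYTL1, another Rab27 effector, rose most with both among 23 vesicle transport genes, of which 6 rose with S249C and 4 rose and 2 fell with wild type FGFR3. In S249C against wild type FGFR3 in EV cells, 7 of 20 transcription factors and 10 of 19 basal genes fell, with 2 umbrella and luminal genes higher and 3 lower of 22, where 4.31% of all genes rose and 6.45% fell. DSC3, a desmosomal cadherin, fell most among the basal genes, at 26.3 ± 2.18 CPM in EV_S249C and 63.0 ± 0.892 CPM in EV_FGFR3WT cells (-1.26 ± 0.07, adjusted p = 6.21e-08).

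Genes with the most similar pattern were found by the root mean square difference of group mean log2(CPM + 0.5) over the 10 groups, centred within each experiment, among 13529 genes averaging at least 1 CPM in each. The nearest to UPK1B were UNC13D (0.08), a priming factor of vesicle exocytosis, ADCY6 (0.11), an adenylyl cyclase, and ST3GAL4 (0.11), a sialyltransferase, against a median difference of 0.67 over all candidates. UPK3B was the 16th nearest to UPK1B (0.16), and UPK1B the 13th nearest to UPK3B. Nearest to UPK3B were TNFRSF12A (0.10), the receptor of the cytokine TWEAK, NINJ1 (0.11), a protein of plasma membrane rupture, and SLC46A1 (0.12), a folate transporter. UPK2 lay farther away from both, with UPK1B its 107th neighbour (0.37), and its nearest genes were C1QTNF6 (0.13), a secreted C1q-related protein, RNF223 (0.15) and IRF5 (0.17), an interferon regulatory factor. For UPK1A, with few counts, the nearest were ENSG00000283782 (0.22), PLEKHO1 (0.23) and CYP1A1 (0.23), and UPK1B, UPK3B and UPK2 ranked 9782nd, 10757th and 12644th. This likeness is a description over 10 group means that share libraries.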

How the data were processed

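Per the labels' protocols, the RNeasy kit gave the RNA, and the library kit was TruSeq for the first experiment but NEBNext Ultra II for the second. The authors deposited estimated counts per gene as whole numbers, unscaled. Per the submitters' processing notes Salmon 0.8 and DESeq2 were used with the builds hg19 and GRCh37. No source used here gives the annotation release or the filter behind the shorter second table. Columns were assigned to groups by their names.

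Each experiment was fitted separately with edgeR 4.0.16 (R 4.3.3): filterByExpr by group (minimum count 10), TMM factors, 1 mean per group, and the quasi-likelihood F test, with p-values adjusted by Benjamini-Hochberg over all genes tested and called at an adjusted p under 0.05. SE is the log2 fold change's size divided by the root of F. The filter left 19629 and 19399 genes, and the biological coefficients of variation were 4.58% and 6.05%. Alternatives were DESeq2 1.42.0, upper-quartile factors, library totals alone, no filter, at least 1 CPM in 3 libraries, the compared groups alone, a replicate block, and leaving out each library. The scripts were tested on simulated data. Depth is the total count per library given above. Levels are not compared across experiments, which used different kits.

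Members, lists and motifs were chosen with earlier results of these data known. Named beside the members were, in each list and each of 6 main comparisons, the largest rise and fall past the threshold averaging at least 2 CPM, a selection of which is given, and the 3 nearest genes of each member. Promoter windows are from RefSeq (GRCh38.p14) and positions from GENCODE v29 on GRCh38, not the authors' build.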

Additional observations from a re-analysis of the deposited data

Results flagged for a closer look

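The effect of UTX over the empty vector differed between sphere and full medium in UPK1B, UPK2 and UPK3B, by a test of the difference itself. On the log2 scale UTX raised UPK1B by 1.40 ± 0.04 in sphere medium and 0.48 ± 0.04 in full medium, a difference of 0.92 ± 0.05 (SE, edgeR adjusted p = 6.09e-12). For UPK2 the difference was 1.03 ± 0.13 (adjusted p = 2.27e-06), and for UPK3B 0.47 ± 0.08 (adjusted p = 4.96e-05). The effect of HEAA over the empty vector differed between the media in the same genes, by 0.67 ± 0.05 for UPK1B (adjusted p = 1.75e-09), 0.78 ± 0.14 for UPK2 (adjusted p = 0.000148) and 0.26 ± 0.08 for UPK3B (adjusted p = 0.0144). In each of these the libraries with UTX or HEAA lay above those of EV in both media. On the log2 scale the effects thus differed in size and not in direction. In CPM the gain in group mean over EV, with UTX or HEAA, was larger in sphere medium for UPK1B but smaller there for UPK2 and UPK3B. The effect of UTX on UPK1B also differed between FGFR3 with S249C and wild type FGFR3, at 0.48 ± 0.05 and 0.11 ± 0.05, a difference of 0.37 ± 0.06 (adjusted p = 0.0151).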

How the results depend on the processing

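UPK2 and UPK3B kept their direction and their side of the threshold in all 16 comparisons under every alternative run. UPK1B did so in 13 comparisons. Its rise in S249C over wild type FGFR3 in UTX cells did not pass with a replicate block (0.18, adjusted p = 0.0557), with the compared groups alone (0.18, adjusted p = 0.053) or without any 1 library (0.16 to 0.21), and the number of uroplakins called there became 0. Leaving out 1 library gave -0.21 to -0.15 for UPK1B in S249C against wild type FGFR3 in EV cells (1 to 2 uroplakins called) and 0.34 to 0.40 for its UTX difference between FGFR3 forms (0 to 1 called). UPK1A rests on few counts. Without the low-count filter it passed in HEAA against EV (-1.27) and UTX against EV (-1.64) in sphere medium, in the UTX difference between media (-1.64) and in sphere against full medium in EV cells (-0.93), and it was -0.00 for UTX in full medium. With DESeq2 it passed for UTX in sphere medium (-1.69, adjusted p = 0.0424). Leaving out 1 library gave UPK1A ranges of -2.39 to -0.09 (UTX, sphere), -0.16 to 0.18 (UTX, full), -1.80 to 0.29 (HEAA, sphere), -0.07 to 1.11 (HEAA against UTX, sphere), -2.42 to -0.12 (UTX by medium), -1.55 to 0.55 (HEAA by medium), -2.49 to -0.40 (sphere against full, EV), -1.55 to -0.96 (UTX with S249C) and -0.11 to 0.66 (S249C against wild type FGFR3, UTX). The sign turned for HEAA in sphere medium and by medium without EV_sphere replicate 2, for HEAA against UTX without UTX_sphere replicate 1, for UTX in full medium without EV_full replicate 3 or UTX_full replicate 2 (-0.11), and for S249C in UTX cells without UTX_FGFR3WT replicate 2. UPK1A passed for UTX in sphere medium without EV_sphere replicate 1 or 3 or UTX_sphere replicate 2, and for HEAA in sphere medium and UTX by medium without EV_sphere replicate 3. It passed for sphere against full medium in EV cells without EV_sphere replicate 2. Over all genes, leaving out 1 library gave 1124 to 1717 calls for S249C in EV cells (2088 with all libraries), 291 to 535 for S249C in UTX cells (591) and 58 to 248 for the UTX difference between FGFR3 forms (133, and 80 with the replicate block). Deviations of same-numbered libraries correlated at -0.06 to 0.06 (first experiment) or -0.09 to 0.16 (second experiment). These correlations do not show whether same-numbered libraries were handled together. The block changed no other call of a uroplakin. The causes of these changes were not tested. Depth limits UPK1A and UPK3A.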
